A study of Mus musculus with 18 samples.

Results

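The loci described are windows around the genes of 4 proteins that work as one complex in red cell precursors: Tal1, Lmo2, Ldb1 and Cbfa2t3. A chromatin loop belonged to a locus when at least 1 of its anchors overlapped the window by at least 1 bp. The rule took 47 of the 20926 loops in the authors' list (0.225%) and 20 of the 13483 domains. Of these loops 9 were at Tal1, 17 at Lmo2, 9 at Ldb1 and 12 at Cbfa2t3, and no loop was taken by more than one window. The windows were 114650000 to 114850000 on chromosome 4 (Tal1), 103650000 to 103900000 on chromosome 2 (Lmo2), 46050000 to 46200000 on chromosome 19 (Ldb1) and 125080000 to 125300000 on chromosome 8 (Cbfa2t3), in mm9, the build named in the submitters' processing notes.

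LDB1 is an adaptor that can bind to itself and so bring distant DNA sites together. It carries no DNA-binding domain of its own and reaches DNA through LMO2, a small LIM-domain protein, which in turn holds TAL1 (a basic helix-loop-helix factor that binds E-boxes with a partner such as E2A) and GATA1. CBFA2T3, also called ETO2, is a corepressor that joins this assembly in immature erythroid cells. The complex is known for binding at erythroid enhancers and promoters that carry GATA motifs and E-boxes, and for holding enhancers near their genes.

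The series profiled chromosome contacts by Micro-C, in which chromatin is cut between nucleosomes and DNA ends that lie close together are ligated and sequenced. The cells were an LDB1-AID subline of G1E-ER4, a mouse erythroblast line that lacks its own GATA1 and expresses GATA1 fused to the ligand-binding domain of the oestrogen receptor. AID is a degron: once auxin is given, a protein fused to it is broken down. The same subline was used for all samples. There were 9 untreated samples and 9 samples after 4 h of auxin, and whether the subline is 1 clone was not given in the sources used here. The files used here are a loop list and a domain list for the whole series, with positions only, so no sample, treatment or depth stands behind any single loop, and no difference between the groups was tested. All comparisons below are descriptions of the lists. A loop missing from them may be a contact that the authors' caller did not pick.

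The genes could not be placed inside their windows, since no mm9 annotation was used here. Their protein-coding neighbours are known by order alone, from the RefSeq table of GRCm38.p6. Tal1 lies between Stil and Pdzk1ip1, Lmo2 between Caprin1 and 4931422A03Rik, Ldb1 between Hps6 and Pprc1, and Cbfa2t3 between Pabpn1l and Acsf3. Which of these genes an anchor touches is therefore not stated below.

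The RefSeq promoter table (GRCm38.p6) held 7 transcription starts for 3 of these genes, Tal1, Ldb1 and Cbfa2t3. Stretches from it are shown because these genes encode parts of the complex that reads GATA motifs and E-boxes. The 250 bases before each start were searched on both strands for the GATA motifs AGATAA and TGATAA and for the E-box CANNTG, counting overlapping matches each. For each gene the start with most GATA matches is printed, 5′ to 3′ on the gene's strand, with the GATA matches in capitals (TTATCT and TTATCA are the motifs read on the other strand). The stretches are chr4:115056176-115056425 on the plus strand, chr19:46037071-46037320 on the minus strand and chr8:122699110-122699359 on the minus strand, all in GRCm38.p6, which cannot be set against the mm9 positions of the loops.
Tal1: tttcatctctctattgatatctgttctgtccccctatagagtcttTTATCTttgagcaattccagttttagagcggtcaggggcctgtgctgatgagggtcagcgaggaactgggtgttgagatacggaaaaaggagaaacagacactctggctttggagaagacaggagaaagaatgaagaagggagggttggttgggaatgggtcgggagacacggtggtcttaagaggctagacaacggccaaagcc
Ldb1: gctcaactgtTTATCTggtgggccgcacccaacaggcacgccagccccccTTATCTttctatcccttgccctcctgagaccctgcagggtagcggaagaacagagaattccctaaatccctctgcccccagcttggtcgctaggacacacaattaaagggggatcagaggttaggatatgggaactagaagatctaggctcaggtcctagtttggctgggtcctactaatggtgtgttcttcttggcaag
Cbfa2t3: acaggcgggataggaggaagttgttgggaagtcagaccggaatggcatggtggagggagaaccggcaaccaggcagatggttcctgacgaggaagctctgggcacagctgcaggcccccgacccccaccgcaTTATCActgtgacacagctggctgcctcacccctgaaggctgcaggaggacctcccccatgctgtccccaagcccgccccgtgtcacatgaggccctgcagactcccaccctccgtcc

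The Tal1 stretch held 1 GATA match, the Ldb1 stretch 2 and the Cbfa2t3 stretch 1. At least 1 GATA match stood before 3 of the 7 starts, compared with 16.6% of the 32851 stretches in the table. Counted by gene, each of the 3 genes had a match at 1 of its starts, compared with 18.8% of 27025 genes with a match at any start. Tal1 had 2 listed starts, Ldb1 3 and Cbfa2t3 2, while the 32851 stretches were spread over 27025 genes. More starts give more chances of a match, so the count by gene is not a like comparison. The E-box stood before 3 of the 7 starts, compared with 66.2% of all stretches. In the printed stretches it was found 4 times at Cbfa2t3, 1 time at Ldb1 and 0 times at Tal1. A match describes these letters and is not evidence of binding.

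The 4 windows held more loops than most windows of their widths. Tiles of the same width were laid over all chromosomes of the lists, and the median tile had 1 loop at every width used. At least 17 loops, the number at Lmo2, were found in 1.68% of 10282 tiles of 250 kb. At least 12 loops, the number at Cbfa2t3, were found in 5.91% of 11687 tiles of 220 kb. At least 9 loops were found in 7.03% of 17143 tiles of 150 kb, the width used for Ldb1, and in 11.4% of 12856 tiles of 200 kb, the width used for Tal1. Lmo2 was therefore the most loop-rich of the loci for its width and Tal1 the least. Many tiles hold no loop at all (42.3 to 49.7% of tiles, depending on the width), so these shares set loop-rich and loop-free parts of the genome side by side.

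**Figure D1:**
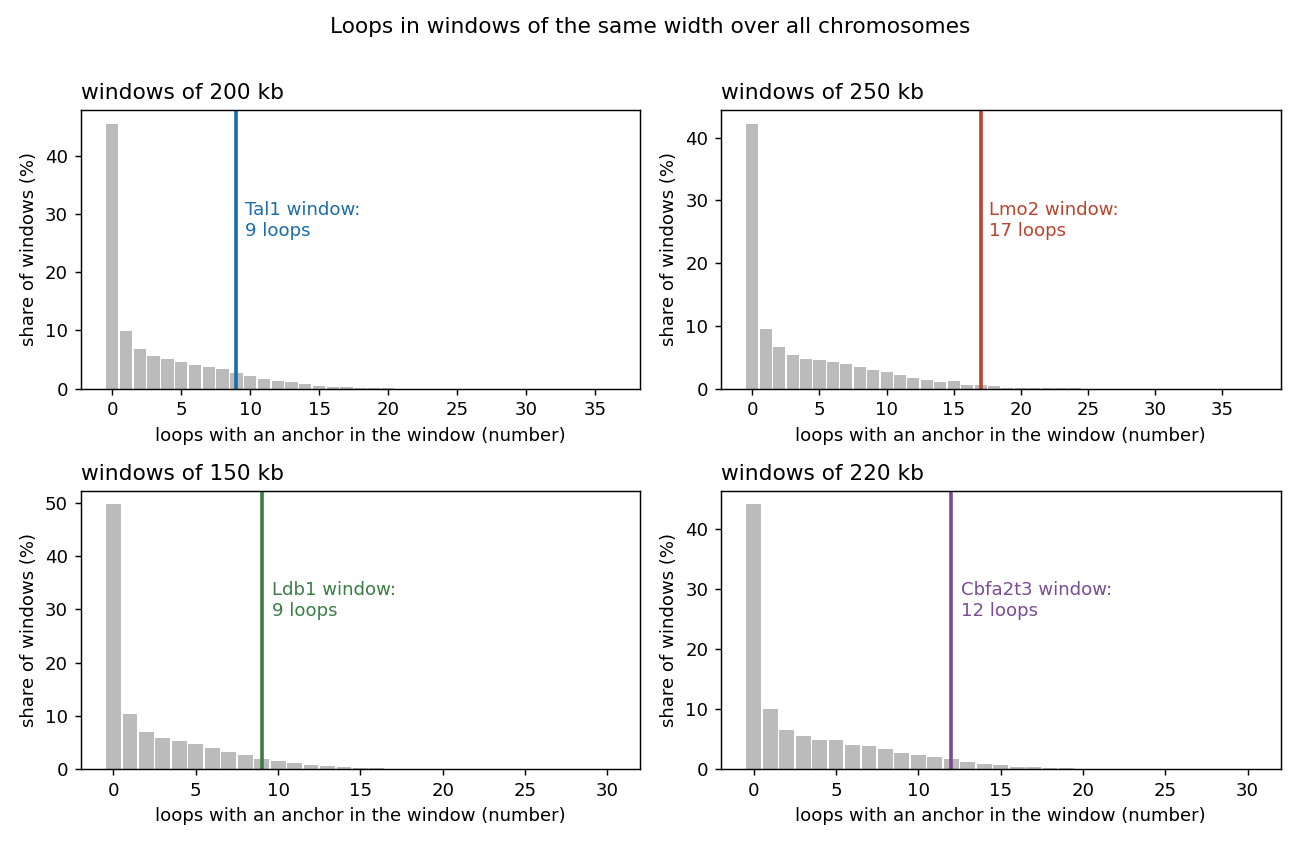
Share of windows (%) against the number of loops with an anchor in the window, for tiles of 200, 250, 150 and 220 kb over all chromosomes (grey bars). The coloured line marks the window of each locus, at 9 loops for Tal1, 17 for Lmo2, 9 for Ldb1 and 12 for Cbfa2t3, each to the right of the median tile at 1 loop.

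Most of the 47 loops reached out of the windows. Of the 47 loops, 8 had both anchors in their window, 22 ran to lower and 17 to higher coordinates. By locus, 5 of 9 loops stayed in the window at Tal1, 2 of 17 at Lmo2, 0 of 9 at Ldb1 and 1 of 12 at Cbfa2t3. The windows differed in width, from 150 kb at Ldb1 to 250 kb at Lmo2. The share of loops that stay inside was not computed for tiles of these widths, so these counts have no value of the list beside them. Loop span, the distance between anchor midpoints, had a median of 250 kb over the 47 loops, with a range of 20 to 950 kb, compared with a median of 175 kb and quartiles of 92 and 330 kb over the whole list. The median was 95 kb at Tal1, 280 kb at Lmo2, 280 kb at Ldb1 and 202 kb at Cbfa2t3. No loop of the 47 was longer than 1 Mb.

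**Figure D2:**
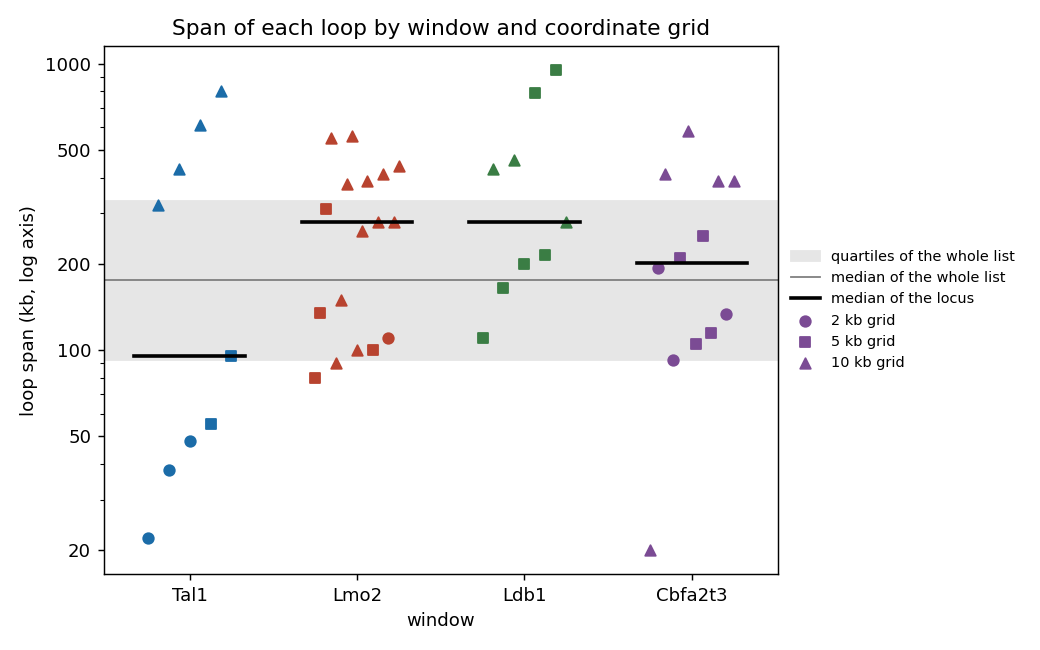
Span of each of the 47 loops in kb on a log axis, by window, with marker shape giving the coordinate grid. Black bars are the medians of the loci (95, 280, 280 and 202 kb) and the grey band spans the quartiles of the whole list, 92 to 330 kb; the 9 Tal1 loops fall into a group of 22 to 95 kb and a group of 320 to 800 kb.

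Loops in the list sit on grids of 2, 5 or 10 kb. Of the 47 loops, 7 used the 2 kb grid (14.9%, compared with 20.6% of the list), 16 that of 5 kb (34%, compared with 47% of the list) and 24 that of 10 kb (51.1%, compared with 32.4%). The 2 kb grid supplied 3 loops at Tal1, 1 at Lmo2, 0 at Ldb1 and 3 at Cbfa2t3. Without it the median span at Tal1 was 375 kb in place of 95 kb.

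At Tal1, the gene of the helix-loop-helix factor, the short loops fanned out from 1 merged anchor region, called the centre below. Anchors that overlap were merged into anchor regions, and the region at 114754001 to 114780000 had 7 loops to 7 partner regions. It was 26 kb wide, joined from a chain of overlapping anchors. The outermost of them, 114754001 to 114764000 and 114770001 to 114780000, do not overlap. Only 1.41% of the 20368 regions in the list, of any width, had 7 or more partners, and the median region had 1. Of the 7 loops, 4 ran to lower coordinates, from anchors starting between 114754001 and 114764001. The other 3 ran to higher coordinates, from anchors starting at 114767501 and 114770001. The merged centre was thus linked on both sides, but by different anchors. Its nearest partners were 114792001 to 114802000 at 22 kb, the region 114720001 to 114736000 at 38 kb and 114706001 to 114716000 at 48 kb. Next came 114822501 to 114832500 at 55 kb and 114667501 to 114677500 at 95 kb. These 5 partners all lay in the window. The 2 remaining partners were far outside it, at 114330001 to 114340000 (430 kb away) and at 115377501 to 115390000 (610 kb away). The loops of 22, 38 and 48 kb are those on the 2 kb grid, and without that grid the largest number of partners in the window was 4.

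The partners of the Tal1 centre were not listed as looping to each other. No triangle, meaning 3 regions that are each joined to the other two, included any of the 7 Tal1 regions, while 23.0% of all regions in the list belonged to at least 1 triangle. Of the 7 regions, 5 had a single partner, and a region with a single partner cannot be in a triangle. The other 2 loops of the window joined 114330001 to 114340000 with 114650001 to 114660000 (320 kb) and 114720001 to 114730000 with 115520001 to 115530000 (800 kb). The longest loop at Tal1 thus started from a neighbouring region and not from the centre. All 9 loops belonged to 1 network of 11 regions and 11 loops, which reached from 114330001 to 115530000. Networks of at least that many regions held 58.1% of all loops.

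Domains at Tal1 were split by a boundary that its loops crossed. A domain of 210 kb (114595001 to 114805000) lay inside one of 860 kb (113955001 to 114815000), and a domain of 560 kb (114805001 to 115365000) followed. The position 114805000 was crossed by 4 loops, 3 of them from the window, with spans of 55, 610 and 800 kb, and so was 114815000. Of the boundaries in the list 16.5% were crossed by at least 4 loops. The 3 crossing loops were the only ones of the 47 that did not lie inside 1 domain. The fourth loop over the boundary joined 114330001 to 114340000 with 115520001 to 115530000 over 1190 kb, and both of its ends were also partners of regions in the Tal1 window.

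**Figure D3:**
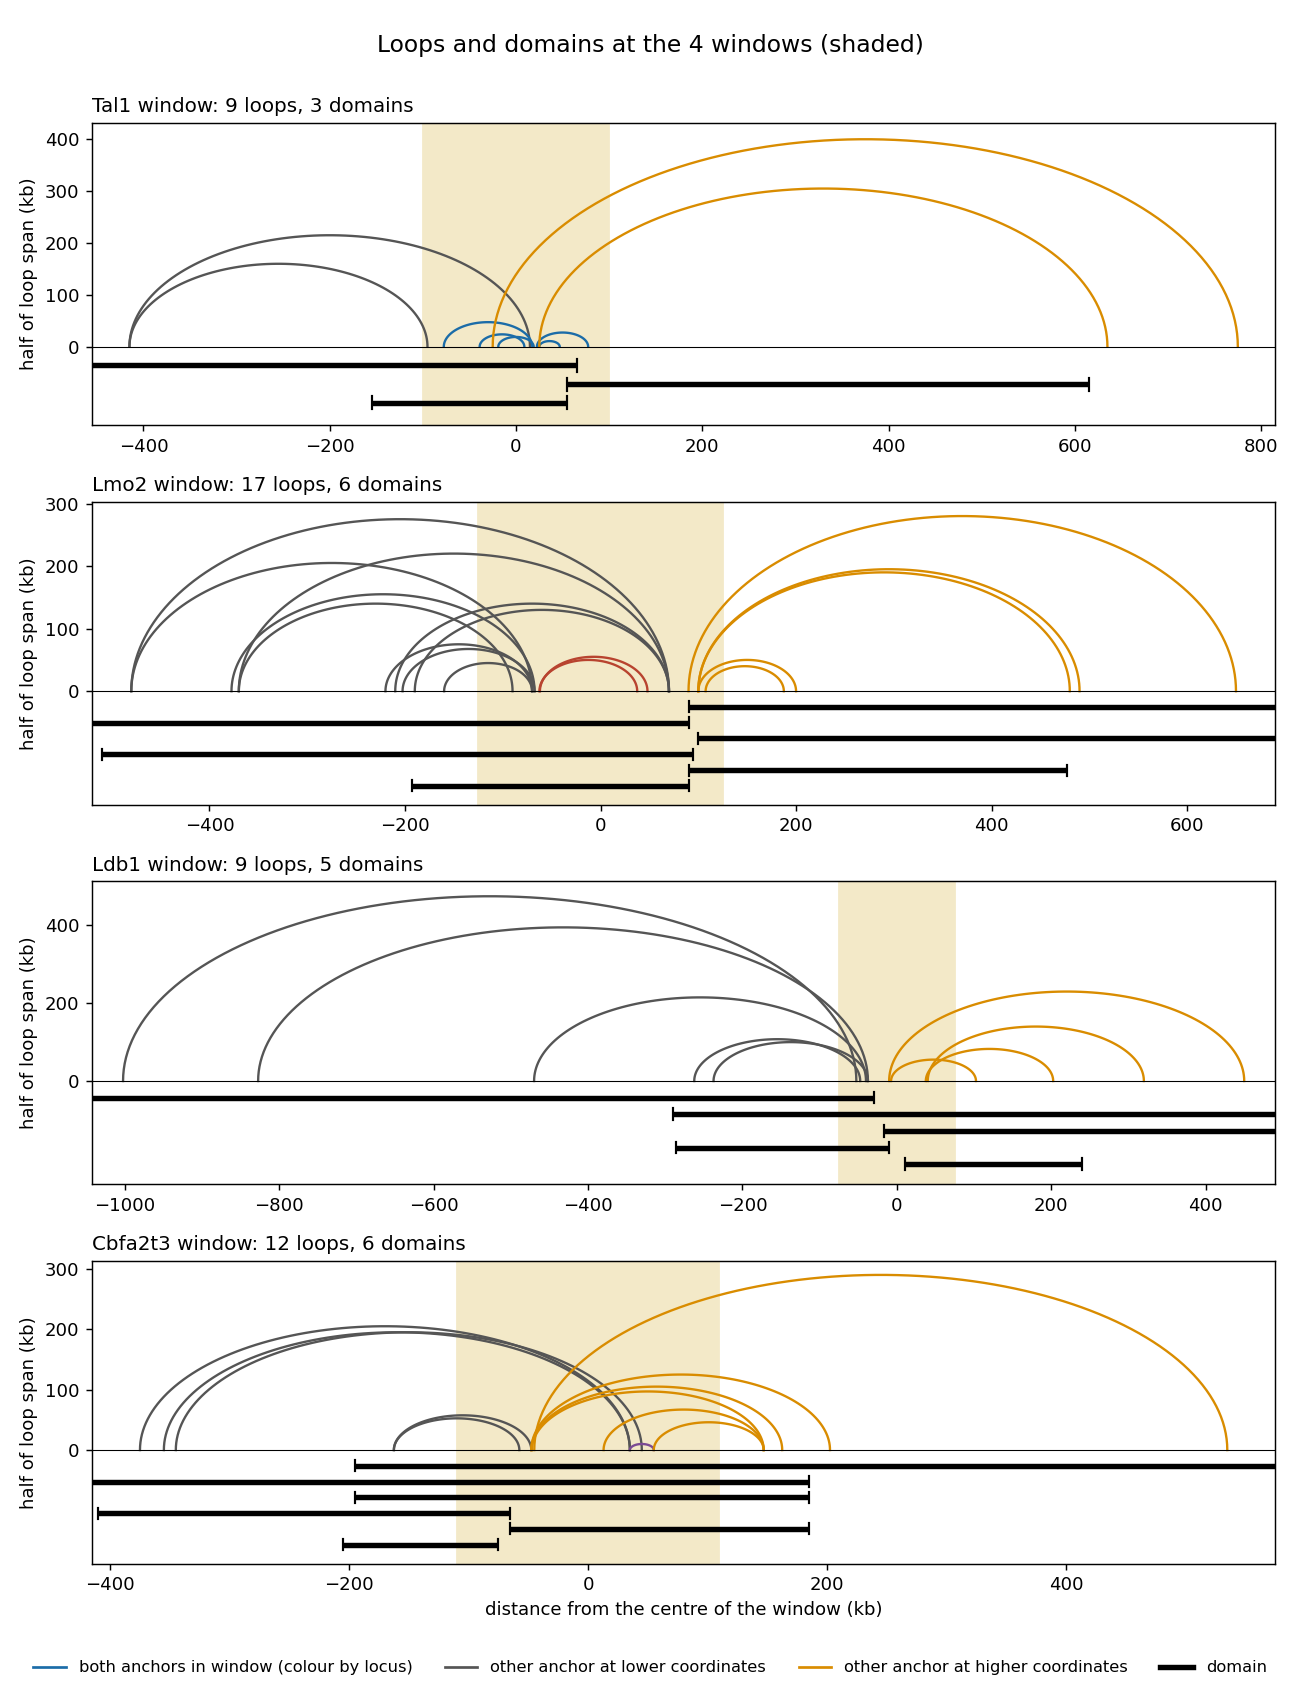
Loops (arcs) and domains (black bars, ticks at their ends) at the 4 windows (shaded), against the distance from the centre of the window in kb; each arc is a semicircle, so that its height grows with the span. At Tal1 5 of 9 arcs stay in the window, at Lmo2 the arcs part at the domain boundary, at Ldb1 5 arcs leave to the left and 4 to the right, and at Cbfa2t3 arcs from both sides overlap over the window.

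The Lmo2 window, named for the gene of the LIM-domain bridge, had the most loops, in 2 sets that met at a domain boundary. At 103865000, 2 domains ended and 2 began. Of the 17 loops, 12 lay below this position and 4 above it, and the anchor of the remaining loop was centred on it. No loop in the whole list had its anchor midpoints on either side of 103865000. That alone is common, since 45.8% of the 17433 boundaries in the list were crossed by no loop. With no loop across and no merged region joined to both sides, the sets necessarily fell in separate networks. The lower network had 23 regions and 37 loops and reached from 102430001 to 103850000. The upper network had 14 regions and 18 loops and reached from 103860001 to 104620000. Networks at least as large held 23.8% and 46.3% of all loops.

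Below the boundary, a pair of regions took most of the loops. The region 103700001 to 103718000 had 7 loops to 6 partners, and 2.89% of all regions had 6 or more. The region 103840001 to 103850000 had 4 loops to 4 partners, all at lower coordinates, and 12.4% of all regions had 4 or more. They had 3 partners in common. From 103277501 to 103302500 the loops spanned 410 kb to the first region and 550 kb to the second. From 103392501 to 103412500 the spans were 310 and 440 kb. From 103550001 to 103577500 there were 2 loops to the first region, of 150 and 135 kb, and 1 of 280 kb to the second. The pair itself was not joined by a loop in the list. The same 3 regions at lower coordinates were therefore linked to both places in the window, without a listed contact between those places.

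The remaining partners of the pair were not shared between its regions. The first region was also joined to 103610001 to 103622500 by a loop of 90 kb, and to 103807501 to 103817500 and 103818001 to 103828000 by loops of 100 and 110 kb. The last 2 loops were the only ones with both anchors in the Lmo2 window. The second region was also joined to 103577501 to 103590000 by a loop of 260 kb. That partner abuts the shared region 103550001 to 103577500 and is separate only because abutting anchors were not merged. A further loop of 280 kb ran from 103400001 to 103410000, inside the shared region 103392501 to 103412500, to 103680001 to 103690000.

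Partners of the Lmo2 window were also joined among themselves. The window's regions took part in 7 triangles, the most of the loci, compared with 0 at Tal1, 2 at Ldb1 and 2 at Cbfa2t3. The region 103550001 to 103577500 was a corner of 5 of them, together with either of the paired regions and with 103277501 to 103302500, 103392501 to 103412500 or 103610001 to 103622500. A sixth joined 103392501 to 103412500, 103577501 to 103590000 and 103840001 to 103850000, the second of which abuts 103550001 to 103577500. The seventh lay above the boundary, between 103870001 to 103887500, 103967501 to 103980000 and 104250001 to 104270000.

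Above the boundary all loops left the window, at higher coordinates. The region 103870001 to 103887500 had 4 loops to 3 partners, with spans of 80, 100, 380 and 390 kb. The loop whose anchor was centred on the boundary joined 103860001 to 103870000 with 104420001 to 104430000 over 560 kb, and it was the 1 loop that crossed the neighbouring domain ends at 103870000 and 103875000. A corner loop joins the start of a domain to its end, here with each anchor midpoint within 20 kb. The Lmo2 window had 4 of the 5 corner loops found among the 47, where 3.73% of all loops in the list were corner loops. Of these, 2 were counted for the domain of 282.5 kb from 103582501 to 103865000, through the region 103840001 to 103850000. Their right midpoints lay 20 kb from the domain end, the limit itself, and their left midpoints 17.5 and 2.5 kb from its start. The other 2 were counted for the domain of 387.5 kb from 103865001 to 104252500, whose left corner was 103870001 to 103880000. Their midpoints lay 10 kb from its start and 2.5 and 12.5 kb from its end. No other limit was tried.

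**Figure D4:**
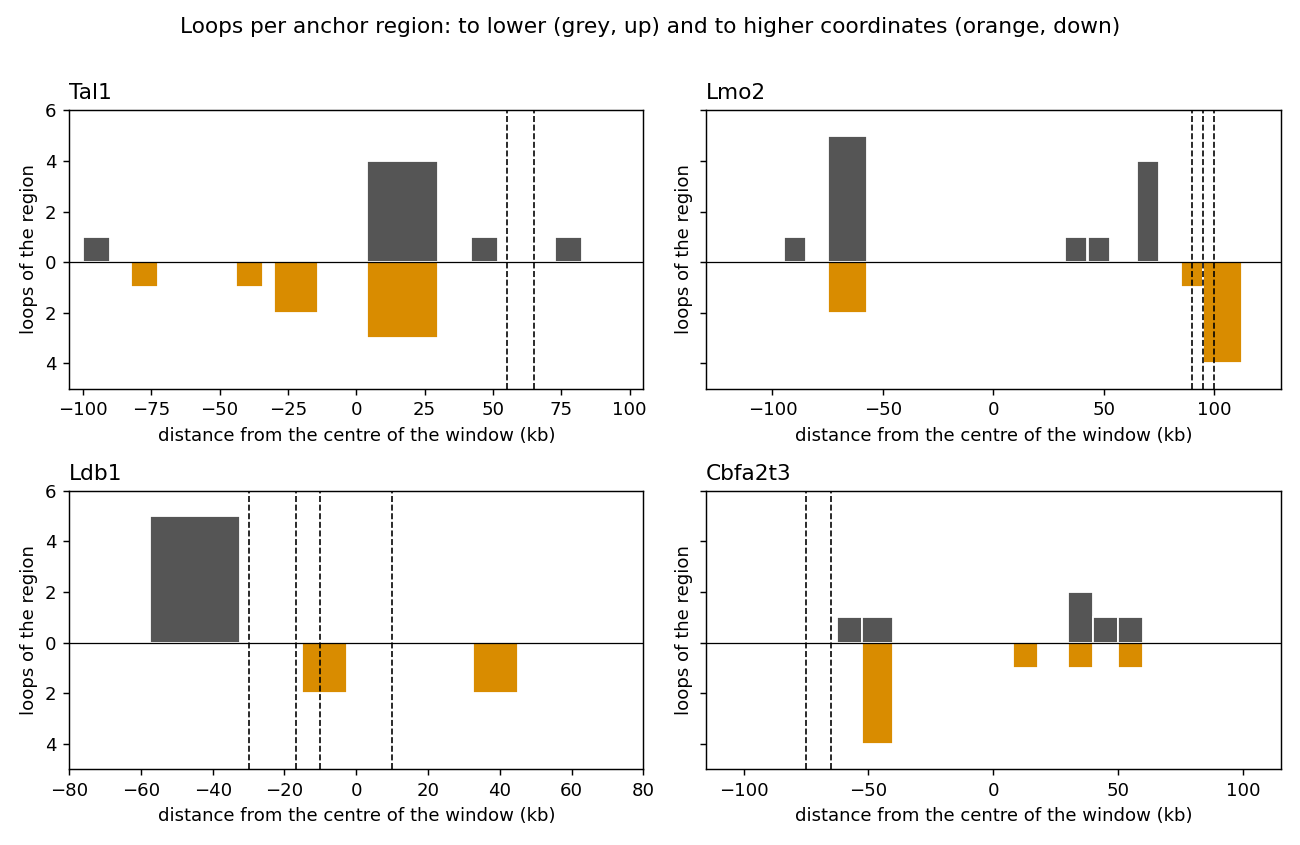
Number of loops of each anchor region in the window that run to lower coordinates (grey, above 0) and to higher coordinates (orange, below 0), against the distance of the region from the window's centre in kb; bar width is the region's width and dashed lines are domain boundaries. Tal1 has 1 region with 4 loops to lower and 3 to higher coordinates, and at Ldb1 the region left of the boundaries has 5 loops to lower coordinates alone.

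The Ldb1 window, named for the gene of the adaptor itself, was looped outwards on both sides. The window had 3 anchor regions, and no listed loop joined one of them to another. The region 46067501 to 46092500 had 5 loops to 5 partners, all at lower coordinates, and 5.9% of all regions had 5 or more partners. It was 25 kb wide, joined from a chain of overlapping anchors. The outermost of them, 46067501 to 46077500 and 46082501 to 46092500, do not overlap. The partners of the region lay at 45877501 to 45892500 (span 200 kb), 45857501 to 45867500 (215 kb), 45640001 to 45662500 (430 kb), 45290001 to 45302500 (790 kb) and 45117501 to 45138000 (950 kb). The loop of 950 kb was the longest of the 47.

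The other Ldb1 regions sent loops to higher coordinates alone. From 46110001 to 46122500 the loops spanned 110 kb, to 46222501 to 46232500, and 460 kb, to 46570001 to 46582500. From 46157501 to 46170000 they spanned 165 kb, to 46322501 to 46334000, and 280 kb, to 46437501 to 46450000. The left and the right regions thus had no partner in common. They belonged to separate networks of 29 regions (43 loops) and 11 regions (13 loops), and networks at least as large held 15.2% and 58.1% of all loops.

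Between the sets, a domain ended at 46095000 and another started at 46108333. A further domain ended at 46115000, inside the region 46110001 to 46122500 and at the centre of the anchor of the 460 kb loop. No loop of the window had its anchor midpoints on either side of any of these positions. A single loop in the list crossed them, from 45732501 to 45742500 to 47072501 to 47082500, over 1340 kb. Of all boundaries in the list, 54.2% were crossed by at least 1 loop and 63.8% by at most 1, so this low number alone is common. A further domain start at 46135000 was crossed by 3 loops, 2 of them from the window, where 24.8% of all boundaries were crossed by at least 3. One domain of 780 kb (45835001 to 46615000) nevertheless held the whole window, and a domain of 1130 kb (44965001 to 46095000) held the 5 loops to lower coordinates.

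The triangles at Ldb1 lay on its left side. The region 46067501 to 46092500 and 45877501 to 45892500 were both joined to 45290001 to 45302500 and both joined to 45640001 to 45662500. The right-hand regions took part in none. Widening the window by 50 kb on each side raised the number of loops from 9 to 15, compared with 9 to 11 at Tal1, 17 to 20 at Lmo2 and 12 to 15 at Cbfa2t3.

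**Figure D5:**
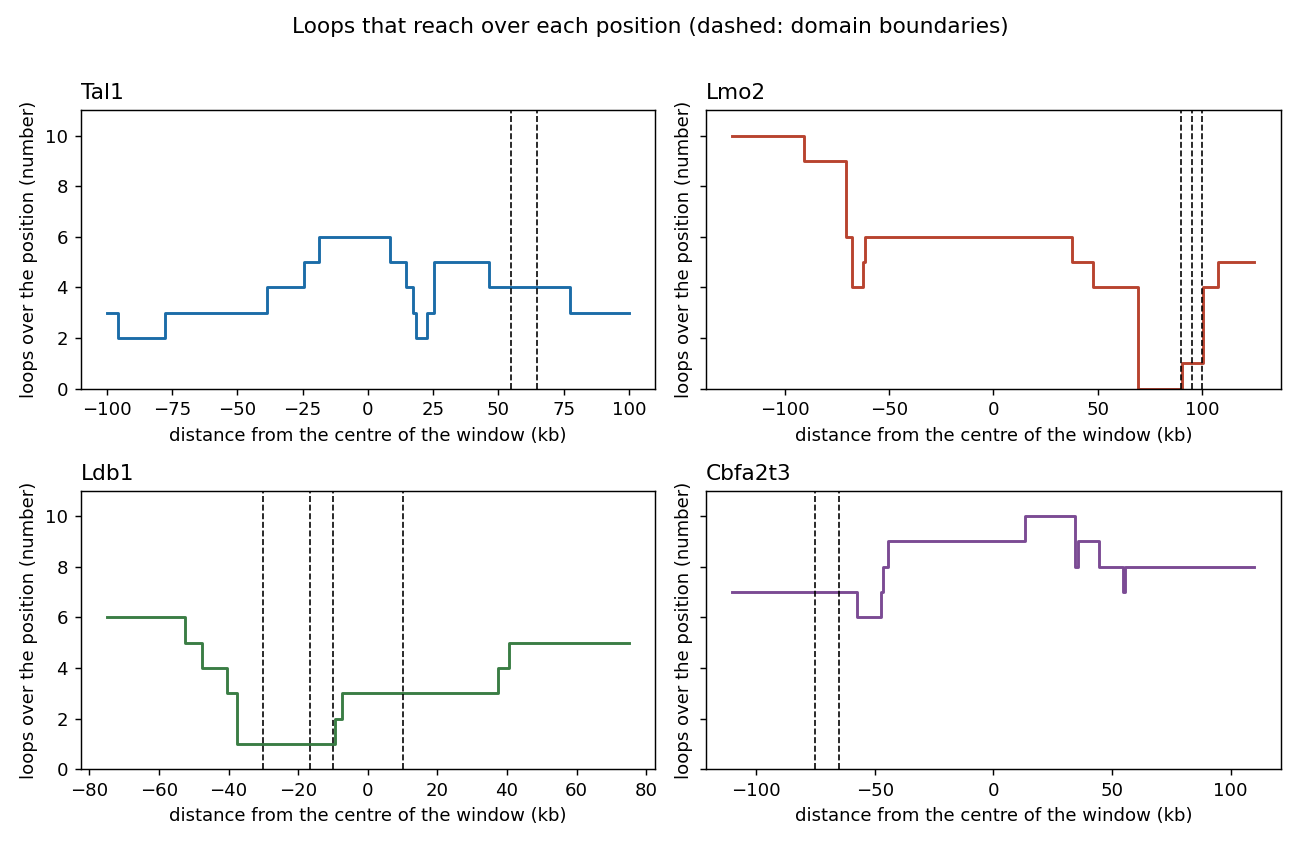
Number of loops in the list that reach over each position of the window, against the distance from its centre in kb; dashed lines are domain boundaries. The number falls to 0 beside the boundary at Lmo2 and to 1 at Ldb1, and it stays at 2 or more over the Tal1 window and at 6 or more over the Cbfa2t3 window.

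Cbfa2t3, the gene of the corepressor, was the locus with most loops overhead. From 6 to 10 loops reached over every position of its window, compared with 2 to 6 at Tal1, 0 to 10 at Lmo2 and 1 to 6 at Ldb1. The domain ends at 125115000 and 125125000 were each crossed by 7 loops, 5 of them from the window, and 4.25% of all boundaries were crossed by 7 or more. Each of the 12 loops nevertheless lay inside a domain. Domains of 1030 kb (124345001 to 125375000), 380 kb (124995001 to 125375000) and 1090 kb (124995001 to 126085000) held the whole window and reached over these ends.

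The region with most partners at Cbfa2t3 was 125137501 to 125150000, with 5 loops to 5 partners. One loop of 115 kb ran to lower coordinates, to 125017501 to 125032500. A loop of 105 kb joined that partner to 125127501 to 125137500. The latter abuts the region with most partners and is separate only because abutting anchors were not merged. The other 4 loops of the region with most partners ran to higher coordinates, with spans of 194, 210, 250 and 580 kb, the last reaching 125720001 to 125732500. The loop of 250 kb was counted as a corner loop of the domain from 125125001 to 125375000. Both of its midpoints lay 17.5 kb from the domain ends, and its right anchor lay past the domain.

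One region outside the window was joined to 3 regions inside it, where 24.6% of all regions in the list had 3 or more partners. The region 125332001 to 125342000 had 3 partners, all in the Cbfa2t3 window: 125137501 to 125150000 at 194 kb, 125198001 to 125208000 at 134 kb and 125240001 to 125250000 at 92 kb. These 3 loops were the only ones of the window on the 2 kb grid. Of the 29 partner regions that lay outside the windows, 6 were shared by at least 2 regions of a window. No share over the whole list was computed for such sharing. Of the 29, 2 had 3 partners in one window, the one described here and 103392501 to 103412500 at Lmo2. The latter was linked to 103680001 to 103690000 as well as to the pair of regions there.

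A second set of contacts at Cbfa2t3 ran to lower coordinates from 125220001 to 125240000. It had loops of 410 kb from 124810001 to 124820000, 390 kb from 124830001 to 124840000 and 390 kb from 124840001 to 124850000. The last of these started at the abutting anchor 125230001 to 125240000 and so counted as a network of its own, with 2 regions. The shortest of the 47 loops, at 20 kb, joined 125220001 to 125230000 with 125240001 to 125250000, and it was the only one with both anchors in the window. The other 11 loops belonged to a network of 54 regions and 74 loops that reached from 119440001 to 125817500. Networks of at least that size held 2.7% of all loops.

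Across the 4 loci, 23 anchor regions lay in the windows. Of these, 12 had a single partner, 7 had 3 or more (30.4%, compared with 24.6% of all regions) and 4, 1 at each locus, had 5 or more (17.4%, compared with 5.9%). The last count depends on the settings. With anchors within 10 kb merged, the largest number of partners was 6 at Tal1, 6 at Lmo2, 4 at Ldb1 and 4 at Cbfa2t3. Without the 2 kb grid it was 4, 5, 5 and 4. No share over the list was computed under these settings. Triangles included 5 of the 23 (21.7%, compared with 23.0% of all regions), which is close to the share in the list. At 3 of the 4 loci the loops fell into 2 networks, the second at Cbfa2t3 being the single loop from the abutting anchor.

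Both anchor midpoints were inside 1 domain for 44 of the 47 loops, 93.6% (95% Wilson interval 82.8 to 97.8%), compared with 86.5% of the list. When only domains that hold no other domain were used, the count was 18 of 47, 38.3% (25.8 to 52.6%), compared with 60.4% of the list. The numbers were 4 of 9 at Tal1, 6 of 17 at Lmo2, 3 of 9 at Ldb1 and 5 of 12 at Cbfa2t3, and the share at each locus was below that of the list. The difference was not tested. The median span was above that of the list at 3 of the loci and below it at Tal1, and the part of span in this difference was not tested. Of the 73 distinct anchors, 24 had a midpoint within 20 kb of a domain boundary, 32.9% (23.2 to 44.3%), compared with 26.6% of the anchors in the list. The counts were 3 of 16 anchors at Tal1, 11 of 24 at Lmo2, 5 of 17 at Ldb1 and 5 of 16 at Cbfa2t3. The intervals cover the counting of loops or anchors alone, and loops of 1 locus share anchors.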

How the data were processed

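Micro-C was made from 18 samples, and the authors deposited 1 loop list and 1 domain list for the series. The deposited values are positions in bp, a unit of the kind "other": they carry no score, p-value or column of a sample (0 columns were left without one). The build is mm9, per the submitters' processing notes. Aligner, callers and the samples in each list are not given in the sources used here. Per its name, the domain list was filtered and merged by the authors.

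Python 3.11.15 with pandas 2.3.3, numpy 2.4.6 and scipy 1.17.1 was used, and matplotlib 3.10.9 for plots. Starts were read as counted from 0 and are printed counted from 1. Anchors overlapping by at least 1 bp were merged into regions, and regions linked by loops formed networks. A loop crossed a boundary when its anchor midpoints lay on either side. A loop was on the 10 kb grid when both anchors started at multiples of 10 kb, on the 5 kb grid when an anchor started 2500 or 7500 bp past one, and otherwise on the 2 kb grid. Tiles did not overlap. The functions were tested on simulated data.

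The members, windows and lists were chosen with earlier results of these data known. In each window the region with most partners, other regions with 3 or more partners, the shortest and longest loops, loops leaving the window by over 250 kb, triangles, domains holding the window and boundaries were to be described. No test was made, since the lists hold no replicates. Other settings tried are given at the end.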

Additional observations from a re-analysis of the deposited data

How the results depend on the processing

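Of 64 recomputed values, 46 stayed within 1.5 times a count or within the interval of a share or median, and 18 moved. Some could not move, since counting each contact once removed none of the 47 loops. The Tal1 median without the 2 kb grid, 375 kb in place of 95 kb, stayed because its interval from 9 loops was 38 to 610 kb. Requiring both anchors in the window left 5 loops at Tal1, 2 at Lmo2, 0 at Ldb1 and 1 at Cbfa2t3, with medians of 105 kb at Lmo2 and 20 kb at Cbfa2t3. Widening the window gave 15 loops at Ldb1. Without the 2 kb grid the Tal1 centre had 4 partners. Domains that hold no other numbered 2 at Lmo2, 2 at Ldb1 and 2 at Cbfa2t3, and domains inside no other 3, 2 and 2. Domains with an end inside the Cbfa2t3 window numbered 3. The share of loops inside domains that hold no other was 38.3% (list 60.4%). Anchors near a boundary were 17.8% within 10 kb (list 16.4%) and 60.3% within 40 kb (list 44.2%). The 4 alternatives for crossed boundaries, chosen after the data were examined, gave the values reported. No paired analysis was possible because neither list has values for single samples, and the planned auxin alternatives were not run. With 0 loops, Ldb1 had no median under both anchors. Depth is unknown.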

Other observations

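Anchors were unevenly placed inside the windows. The longest stretch without an anchor of the listed loops was 89.5 kb at Lmo2 (103718001 to 103807500), 50 kb at Cbfa2t3 (125250001 to 125300000), 35 kb at Ldb1 (46122501 to 46157500) and 28.5 kb at Tal1 (114677501 to 114706000). Anchors covered 46.0% of the Tal1 window, 34.2% of the Lmo2 window, 33.3% of the Ldb1 window and 28.4% of the Cbfa2t3 window. Tal1 had the fewest loops for its width and the largest covered share.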
